A study of Mus musculus with 8 samples.

Results

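Immunoglobulin and plasma cell genes were examined in single-nucleus RNA sequencing (snRNA-seq) data of mouse gastrocnemius, a calf muscle. The 5 genes are Igkc, Jchain, Ighm, Mzb1 and Xbp1, out of 32245 gene symbols in the deposited matrices, and all 5 were listed in each of the 8 libraries. They were chosen by their measured values, since UMIs of Igkc and Jchain were more abundant in old than in young muscle with both droplet systems. A UMI is a molecular tag that lets each captured RNA be counted once. The contrast of old with young muscle and the position of the UMIs in nuclei are therefore given as a description with no test, and the contrast of running with sedentary mice is the one that was tested.

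The mice were wild-type C57BL/6. Old mice were 20 months of age and Young mice 3 months, both without treatment. Running mice were 11 months of age when 2 months of treadmill training began, with sessions of 30 min at a speed of 9 m per min. Sedentary mice were of the same age and untrained. Each of the 4 groups had 2 libraries, of which replicate 1 came from 10x Genomics droplets and replicate 2 from DNBelab C droplets. The sources used here do not give the number or sex of the mice behind a library, so the spread between libraries may be partly technical, and the group is never replicated within a droplet system.

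The 10x libraries held between 10587 and 12991 retained nuclei and between 23327640 and 44389777 UMIs, and the DNBelab C libraries between 4228 and 4772 nuclei and between 4765224 and 9088163 UMIs. The libraries Old replicate 2 and Young replicate 2 stood apart, since 90.4% and 58.6% of their nuclei lay in clusters that no marker list named, against between 3.31% and 22.9% in the other 6. The DNBelab C matrices list only genes with at least 1 UMI, so a gene that is missing there is given as not listed. Muscle fiber nuclei were found in all 8 libraries, and Type IIb myonuclei-like nuclei, named by Myh4 and other fast fiber genes, numbered between 3107 and 6769 in the 10x and between 23 and 2565 in the DNBelab C libraries. Pairs of 10x libraries shared between 30 and 46 cell barcodes.

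An antibody is built of heavy and light chains. B cells carry it on the membrane, and plasma cells, which B cells give rise to, secrete it in large amounts. Igkc encodes the constant part of the kappa light chain and Ighm that of the heavy chain of IgM. Jchain encodes the joining chain, which links the units of secreted IgM and IgA. Mzb1 is a chaperone of the endoplasmic reticulum in B and plasma cells. Xbp1 is a transcription factor of the unfolded protein response that plasma cells need and that many secretory and metabolic cells also use. Each plasma cell keeps 1 rearranged light chain and 1 rearranged heavy chain, so its nucleus holds transcripts of few variable segments.

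Igkc, on chromosome 6 of GRCm38 (70726435 to 70726966, forward strand), had 92.1 CPM in Old replicate 1 (95% Poisson interval 89.1 to 95.1), where CPM are a gene's UMI counts scaled to a common library total. It had 5.44 CPM in Young replicate 1, 10.9 in Sedentary replicate 1 and 0.788 in Running replicate 1. In the DNBelab C libraries it had 8.44 CPM in Old (6.11 to 11.4), 0.110 in Young, 0.546 in Running and 0.839 in Sedentary. Old was thus the highest library within each droplet system. The intervals cover counting error only, and 1 single UMI stood behind the Young DNBelab C value. The ratio of Old to Young was 16.9 (14.7 to 19.5) in 10x and 76.8 (13.1 to 3101) in DNBelab C libraries.

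Jchain, on chromosome 5 (88519809 to 88527891, reverse strand), had 43.2 CPM in Old replicate 1, 0.705 in Young replicate 1, 1.15 in Running replicate 1 and 3.81 in Sedentary replicate 1. The DNBelab C libraries had 5.70 CPM in Old, 1.32 in Young, 1.26 in Sedentary and 0.546 in Running. For Jchain, too, Old was the highest library of each droplet system, with ratios of Old to Young of 61.3 (42.2 to 92.5) and 4.31 (2.13 to 9.28). Over all 20309 genes, to which all 5 members belonged, the contrast of Old with Young had 0% called by edgeR (556 genes at an unadjusted p under 0.05) and 0 by DESeq2 (1174 genes). The order of Old and Young for Igkc and Jchain was what they were picked for, and nothing is read from it.

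Ighm, on chromosome 12 (113418558 to 113422730, reverse strand), was ordered differently. Running replicate 1 had the most, with 96.7 CPM, followed by Old replicate 1 with 82.2, Young replicate 1 with 28.6 and Sedentary replicate 1 with 26.6. The intervals of Young and Sedentary overlapped. In the DNBelab C libraries Old had 36.7 CPM (31.7 to 42.4), Sedentary 21.6, Young 17.9 and Running 17.8, and the last 3 had overlapping intervals.

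Mzb1, on chromosome 18, was sparse, with between 11 and 115 UMIs in a library. It had 2.58 CPM in Old replicate 1, 2.90 in Young, 1.46 in Sedentary and 2.57 in Running, and the intervals of Old, Young and Running overlapped. In the DNBelab C libraries it had 2.16 in Old, 1.65 in Young, 5.04 in Sedentary and 5.46 in Running. Xbp1, on chromosome 11 (5520659 to 5525893, forward strand), had 42.7 CPM in Old replicate 1, 29.4 in Young, 20.3 in Sedentary and 29.1 in Running. Its order turned over in the DNBelab C libraries, where Old was the lowest with 13.8, Young had 22.4, Running 35.4 and Sedentary 36.1. Neither Mzb1 nor Xbp1 thus had an order of Old and Young that was common to both droplet systems.

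**Figure D1:**
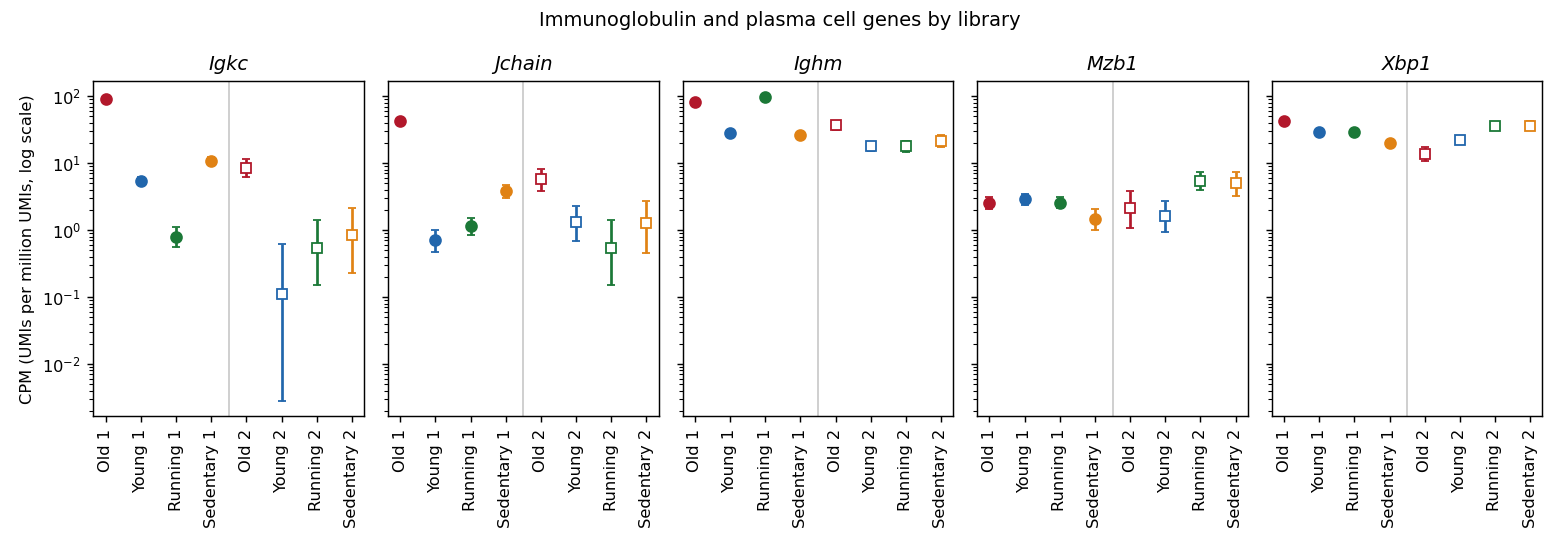
CPM of each of the 5 genes (y axis, log scale) in the 8 libraries (x axis), with 10x libraries as filled circles (1) and DNBelab C libraries as open squares (2). Bars are 95% Poisson intervals. Igkc and Jchain are highest in the Old library on both sides of the vertical line, while Ighm is highest in Running 1 and Xbp1 lowest in Old 2.

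Most Igkc of Old replicate 1 lay in very few nuclei. The 10 nuclei with the most Igkc held 71.2% of its 3610 UMIs, and 1 nucleus alone held 585. The shares in the top 10 nuclei were 70.2% for Jchain, 63.4% for Ighm and 32.7% for Mzb1, and 2.39% for Xbp1. For 3 genes measured as a reference, the top 10 nuclei held 10.4% of Pecam1, an endothelial gene, and 33.6% of Hbb-bs and 54.6% of Hba-a1, globins of red blood cells, which have no nucleus. For Hba-a1, 1 nucleus held 41.4%. In Sedentary replicate 1 the top 10 nuclei held 69.4% of Hbb-bs and 63.5% of Hba-a1, both above the 57.9% of Igkc there. Ighm in Running replicate 1 was spread instead, with 3.87% of its UMIs in the top 10 nuclei and at most 20 in any nucleus.

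**Figure D2:**
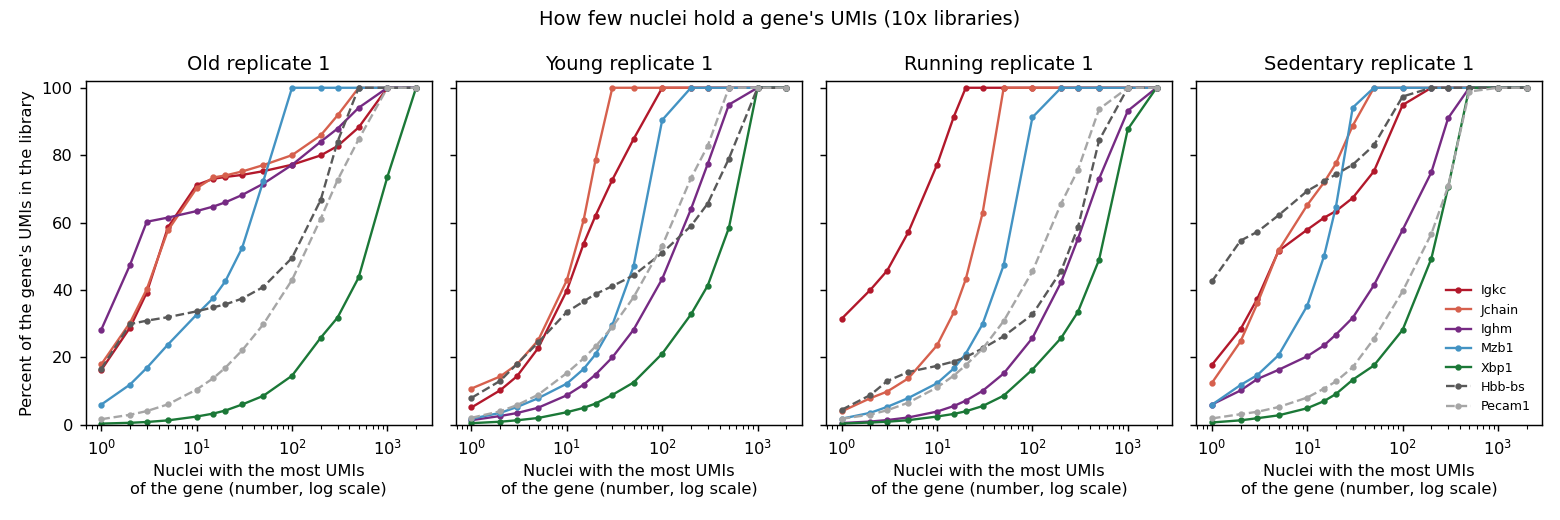
Percent of a gene's UMIs (y axis) held by the nuclei with the most UMIs of that gene (x axis, number of nuclei, log scale) in the 4 10x libraries, with Hbb-bs and Pecam1 dashed. In Old replicate 1 the lines of Igkc, Jchain and Ighm reach 71.2%, 70.2% and 63.4% at 10 nuclei and then flatten, and Xbp1 stays low in every panel.

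With at least 10 Igkc UMIs as the limit, 13 of 11686 nuclei of Old replicate 1 were Igkc-high (0.111%, exact 95% interval 0.0592 to 0.190), and they held 2620 Igkc UMIs, which is 72.6%. Young replicate 1 had 2 such nuclei with 10.2% of its Igkc, Running replicate 1 had 1 with 31.4% and Sedentary replicate 1 had 5 with 51.6%. The DNBelab C libraries had 0 each, which allows shares of up to 0.0629% in Old, 0.0665% in Young, 0.0709% in Sedentary and 0.0710% in Running. The median nucleus of a DNBelab C library had 909 to 1690 UMIs (941 in Old), against 2790 in Old replicate 1, so a fixed limit of 10 UMIs was stricter there. In Old replicate 1 the nuclei nearest above the limit had 12 and 15 Igkc UMIs and the highest below it 8, whereas Young replicate 1 had 11 and 11 above and 9 below. With a limit of 5 UMIs the counts were 16 in Old, 14 in Young, 5 in Sedentary and 1 in Running, so the contrast in number between Old and Young rested on the limit, while the UMIs held by those nuclei were 2640 and 112.

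Nuclei that use the lambda light chain or mostly Igha, the constant part of the heavy chain of IgA, escape a limit on Igkc. Nuclei with at least 10 UMIs of Igkc, of all light chain constant genes or of Igha numbered 17 in Old, 5 in Young, 5 in Sedentary and 1 in Running replicate 1, and these 28 nuclei are described in turn. None of their barcodes occurred in another 10x library. Their depth varied, with between 927 and 15975 UMIs in a nucleus of Old replicate 1.

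The 17 nuclei of Old replicate 1 carried plasma cell gene UMIs, and 1 heavy chain gene led in each. The heavy chain gene with the most UMIs was Igha in 13 of them and Ighm in 4. None had 10 or more UMIs of both Igha and Ighm, and none had 10 or more of both Igkc and Iglc1, a lambda constant gene. Other heavy chain genes occurred at low counts, such as 7 Ighg UMIs beside 101 Igha in nucleus 7. Nucleus 1 had 1 Igha UMI beside 908 Ighm. Jchain was found in 15 of the 17 nuclei, and at least 1 of 6 plasma cell genes (Derl3, Prdm1, Irf4, Sdc1, Tnfrsf17 and Pou2af1) in all 17. These 6 genes had 84 UMIs in the 17 nuclei, whereas 5 B cell genes (Pax5, Ms4a1, Bank1, Cd79a and Cd79b) had 27 UMIs, 17 of them in nucleus 17. Over the full lists of 15 plasma cell and 16 B cell genes, B cell UMIs were the more numerous in nuclei 1 and 17. They were 19 against 15 in nucleus 1 and 26 against 6 in nucleus 17, and fewer than the plasma cell UMIs in the rest. By their clusters, 15 of the 17 lay in the B cell-like cluster, and the immunoglobulin gene symbols had been left out of the clustering. Gm30211, which overlaps Igkc on the same strand, was not left out and was the leading gene of that cluster. The placement of these nuclei may thus not be independent of Igkc reads.

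The first 6 nuclei held 92.0% of the Igkc of the 13 Igkc-high nuclei. Nucleus 1 had 585 Igkc and 908 Ighm UMIs with 0 Jchain, and nucleus 2 had 454 Igkc, 619 Ighm and 209 Jchain. Nucleus 3 had 376 Igkc, 414 Ighm and 100 Jchain. These were the 3 Igkc-high nuclei led by Ighm, and they alone held 1941 of the 3223 Ighm UMIs of the library. Nucleus 4 had 352 Igkc, 588 Igha and 128 Jchain, nucleus 5 had 347, 398 and 169, and nucleus 6 had 297, 451 and 168. Nuclei 7 to 13 were led by Igha, with between 12 and 73 Igkc UMIs, and the median over the 13 was 73. Nucleus 14 used the lambda chain, with 691 Iglc1, 597 Igha and 303 Jchain UMIs and no Igkc. Immunoglobulin genes made up between 0.207% and 31.4% of all UMIs in a nucleus.

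Nucleus 1 lay in a fibro-adipogenic progenitor-like cluster and among the 6% highest doublet scores of its library. It was the only one of the 17 with such a score, and without these nuclei 12 Igkc-high nuclei with 68.5% of the Igkc remained. In 3 of the 17, Ttn, a giant sarcomere gene of muscle fibers, exceeded 1% of UMIs, with 845 Ttn UMIs in nucleus 13 and 409 in nucleus 9. What the muscle transcripts in these nuclei come from was not tested.

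**Figure D3:**
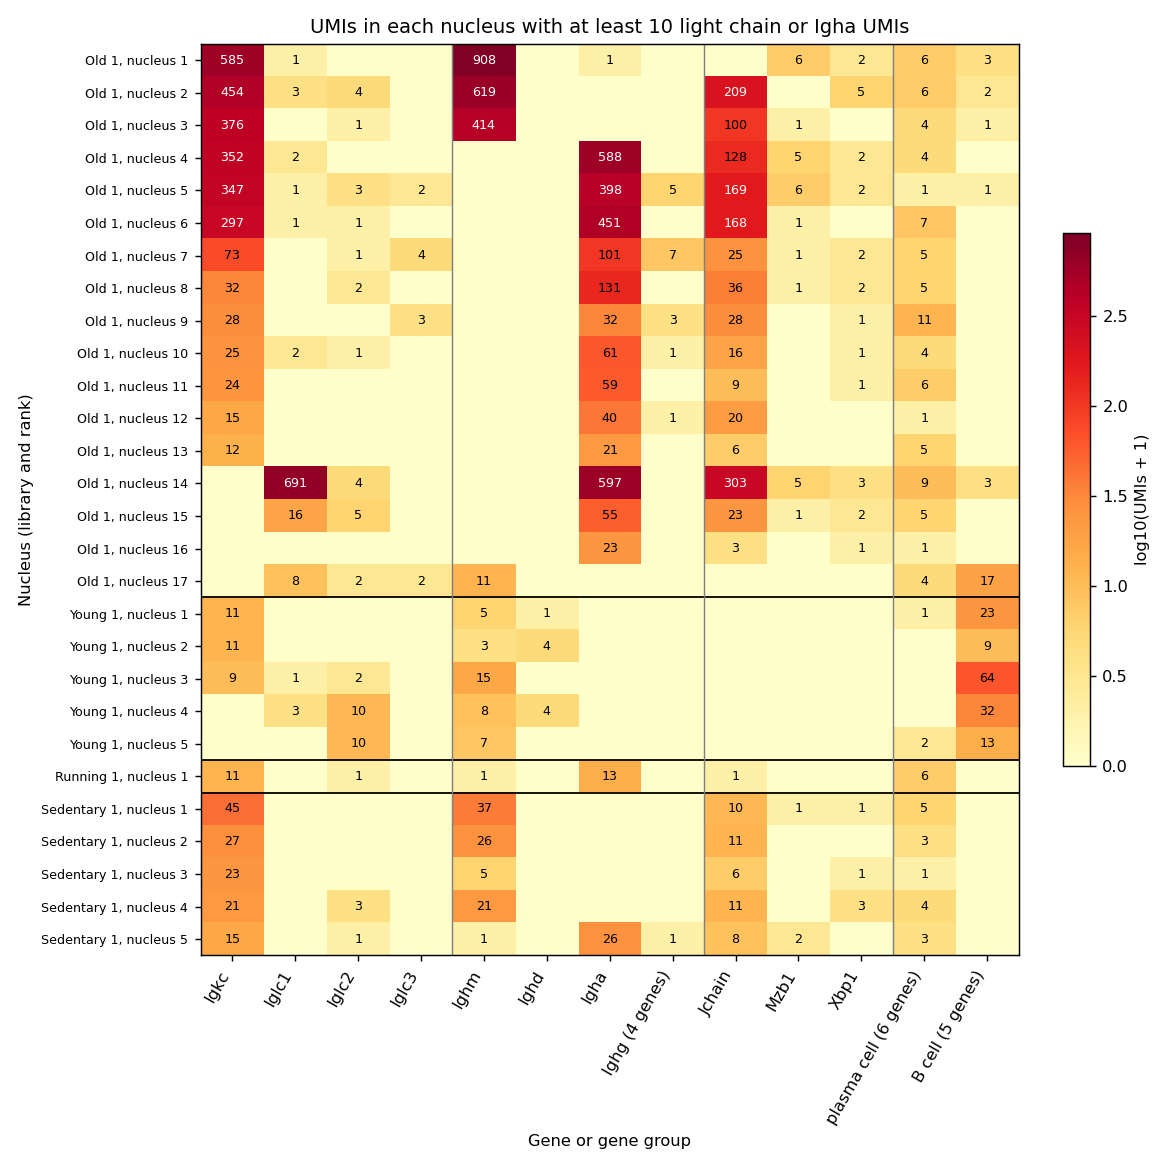
UMIs (numbers in the cells, color as log10 of UMIs + 1) of light chain, heavy chain and plasma cell genes (columns) in the 28 nuclei with at least 10 UMIs of a light chain or of Igha (rows, by library). Old 1 nuclei are led by either Ighm or Igha, with Jchain in 15 of 17. The 5 Young 1 nuclei have B cell genes with no Jchain and no Igha. The 5 Sedentary 1 nuclei have Jchain and no UMI of the 5 B cell genes.

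The 5 nuclei of Young replicate 1 were of another kind. They had between 0 and 11 Igkc and between 3 and 15 Ighm UMIs, no Jchain and no Igha. The 5 B cell genes had 141 UMIs in them and were found in all 5, and the 6 plasma cell genes had 3. In Sedentary replicate 1 the 5 nuclei had 45, 27, 23, 21 and 15 Igkc UMIs and 10, 11, 6, 11 and 8 Jchain UMIs. Ighm was the leading heavy chain gene in 4 of them and Igha in 1, whereas Igha led in 13 of the 17 nuclei of Old. Immunoglobulin genes made up at most 2.97% of the UMIs of a nucleus there. Their 6 plasma cell genes had 16 UMIs over all 5 nuclei and the 5 B cell genes 0. Of the full list of 16 B cell genes, there was 1 UMI in the first of these nuclei and 6 in the second. Of these 5, 4 lay in an unnamed cluster. The single nucleus of Running replicate 1 had 11 Igkc, 13 Igha and 1 Jchain UMIs.

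The genes that led the Igkc-high nuclei against all other nuclei of their library, among genes with at least 20 UMIs in them, differed accordingly. They were, for Old replicate 1, Igkc, Gm30211, Igha, Ighm, Jchain, Pou2af1, Tent5c, Mzb1, Cacna1e and Txndc5. Pou2af1, a coactivator of immunoglobulin transcription, stood 449-fold higher in CPM there, Tent5c, a poly(A) polymerase of plasma cells, 230-fold, and Txndc5, a disulfide isomerase, 38.6-fold. Gm30211 overlaps Igkc on the same strand, so reads of both genes cannot be told apart with certainty. In the 2 nuclei of Young replicate 1 the leading genes after Igkc were Bank1, Arhgap15, Bach2 and Aff3, of which Bank1, a B cell scaffold protein, stood 70.9-fold higher. In Sedentary replicate 1 Igha, Jchain, Igkc and Ighm led, where Igha rested on 26 UMIs in 1 of the 5 nuclei and Ighm was found in all 5. The genes after them, such as Inpp4b and Fut8, were not of the plasma cell list. In the 1 nucleus of Running replicate 1 no immunoglobulin gene reached 20 UMIs. These genes also define the nuclei, so their folds are a description.

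The variable segments showed that the high nuclei of Old replicate 1 did not share 1 antibody. A light chain segment was found in 12 of the 17 nuclei and 11 different segments were the leading one, and a heavy chain segment was found in 9 nuclei with 8 different ones. In nuclei 7, 9, 12 and 17 the light chain segment rested on 1 UMI, and 7 different segments had at least 2. Nucleus 4 held UMIs of 5 variable segments and nucleus 5 of 3, and the other nuclei of at most 2. The UMIs per leading light chain segment were few, between 1 and 11 in a nucleus. Reads of similar segments can be split or misassigned by counting. The germline 3' ends of the 7 light chain segments with at least 2 UMIs are shown because this stretch lies at the start of the antigen contact loop that joins the J segment. They were read from GENCODE vM21 transcripts, from 15 bases before the last in-frame cysteine codon, in capitals, to the segment's end, and nucleus numbers are those of Old replicate 1.
Igkv4-55 (nucleus 1, 4 UMIs): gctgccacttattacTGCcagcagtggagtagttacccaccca
Igkv3-2 (nucleus 2, 6 UMIs): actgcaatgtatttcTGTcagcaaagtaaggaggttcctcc
Igkv14-126 (nucleus 3, 3 UMIs): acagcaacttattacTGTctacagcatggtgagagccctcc
Igkv8-18 (nucleus 4, 6 UMIs): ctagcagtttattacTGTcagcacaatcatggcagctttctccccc
Igkv5-48 (nucleus 5, 11 UMIs): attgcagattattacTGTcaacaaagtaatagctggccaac
Igkv4-90 (nuclei 6 and 10, 5 UMIs): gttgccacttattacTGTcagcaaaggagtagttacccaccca
Iglv1 (nucleus 14, 8 UMIs): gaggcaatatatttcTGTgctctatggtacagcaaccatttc

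These segments lie on GRCm38 at chr6:69607275-69607828 (reverse strand) for Igkv4-55, chr6:70698449-70699067 (forward) for Igkv3-2, chr6:67896172-67896642 (forward) for Igkv14-126 and chr6:70355852-70356445 (forward) for Igkv8-18. Igkv5-48 lies at chr6:69726573-69727138 (reverse), Igkv4-90 at chr6:68807179-68807708 (reverse) and Iglv1 at chr16:19085017-19085500 (reverse). Over the first 41 bases shown, the 21 pairs of ends differed at between 4 and 24 positions. The pair with 4 differences was Igkv4-55 and Igkv4-90, the most alike over this stretch. Whole segments were not compared. The 6 nuclei with the most Igkc each had a different leading segment, and Iglv1 went with the lambda constant gene Iglc1 in nucleus 14. The single UMI segments did not all match the constant gene. Nucleus 9 had 1 UMI of the lambda segment Iglv3 beside 28 Igkc and 0 Iglc1 UMIs. Nucleus 17 had 1 UMI of the kappa segment Igkv2-107, annotated as a pseudogene, beside 8 Iglc1 and 0 Igkc. Both segments are among the 11 leading ones.

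Outside the 17 nuclei, Igkc was thinly spread over Old replicate 1. The remaining 990 UMIs lay in 912 of 11669 nuclei (7.82%), of which 856 had exactly 1 UMI and none more than 8. Jchain had 451 UMIs in 424 further nuclei and Igha 537 in 510, and 15% of the nuclei had a UMI of at least 1 of these 3 genes. Nuclei with both Igkc and Jchain numbered 40, against 33.1 as the product of the shares. There were 0.474 Jchain UMIs for each Igkc UMI inside the high nuclei and 0.456 outside, and 0.976 and 0.542 Igha UMIs. In Sedentary replicate 1 the Jchain values were 0.351 inside and 0.35 outside. In Young replicate 1 they were 0 and 0.151, and in Running replicate 1 0.0909 and 2.08. The value inside for Old includes nucleus 14, which had 303 Jchain and no Igkc. Over the 13 Igkc-high nuclei alone there were 914 Jchain and 2620 Igkc UMIs, and 780 and 990 in all other nuclei.

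Thin spread reached every class of nuclei in Old replicate 1. Over 17 groups of nuclei other than B cell-like ones, the share with an Igkc UMI was between 5.79% (adipocyte-like) and 11.8% (lymphatic endothelial-like), and it was 55.8% in B cell-like nuclei outside the 17. Type IIb myonuclei-like nuclei, fast muscle fiber nuclei that make no antibody, had a UMI in 7.59% (exact interval 6.79 to 8.45, median depth 3706 UMIs). Fibro-adipogenic progenitor-like nuclei had it in 7.68% (6.79 to 8.64, median depth 2090) and macrophage-like nuclei in 8.47% (6 to 11.5, median depth 2249). A nucleus held 0.0803, 0.0808 and 0.0871 Igkc UMIs on average in these 3 classes. Over the 17 groups the average ran from 0.0606 (adipocyte-like) to 0.129 (lymphatic endothelial-like). Whether these UMIs come from the nuclei themselves or from free RNA was not tested, since empty droplets were not analysed here.

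The level of this thin spread differed between the 10x libraries. In Type IIb myonuclei-like nuclei, Igkc had 326 UMIs in Old (19.4 CPM), 32 in Sedentary (3.74 CPM, 1.03% of nuclei), 15 in Young (0.618 CPM, 0.222% of nuclei) and 3 in Running. Of the 185 Igkc UMIs of Young replicate 1 outside its high nuclei, 140 lay in B cell-like nuclei, so Young had Igkc mainly where B cell genes were. With every nucleus thinned to 500 UMIs the share with Igkc was 1.93% in Old, 0.432% in Sedentary, 0.281% in Young and 0.0605% in Running replicate 1, which is the order of the unthinned shares of 7.92%, 1.07%, 0.704% and 0.139%.

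**Figure D4:**
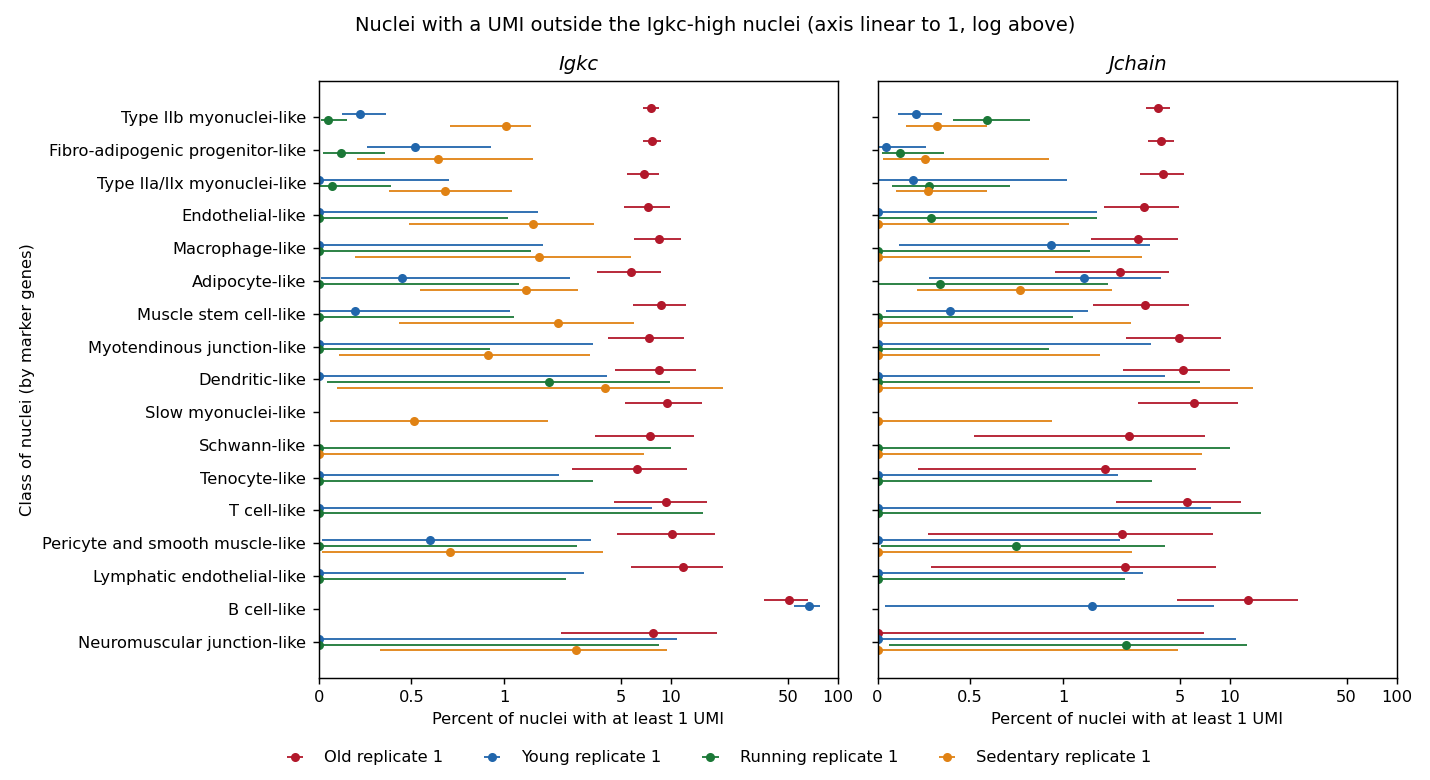
Percent of nuclei with at least 1 Igkc (left) or Jchain (right) UMI (x axis, linear up to 1 and log above) in each class of nuclei (y axis) of the 10x libraries, outside Igkc-high nuclei, for classes with at least 20 nuclei. Bars are exact 95% intervals. In Old replicate 1 the Igkc shares of classes other than B cell-like lie between 5.79% and 11.8%, to the right of the other libraries, and B cell-like nuclei stand apart in Old and Young.

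The B cell-like cluster held few nuclei in every library. They numbered 58 of 11686 in Old replicate 1 (0.496%, exact interval 0.377 to 0.641) and 69 of 11795 in Young replicate 1 (0.585%, 0.455 to 0.740), and the intervals overlapped. Running replicate 1 had 14 (0.108%) and Sedentary replicate 1 had 10 (0.0945%), which leaves their values thin. In the DNBelab C libraries no cluster was B cell-like. In Old replicate 2 the 43 Igkc UMIs lay in 40 nuclei with at most 2 each, and 41 of these UMIs lay in unnamed clusters, as did 90.4% of the nuclei. Its Igha count was 5 and its Jchain count 29, and 1 nucleus held both Igkc and Jchain. The excess of Igkc over Young replicate 2 thus came with no high nucleus, and no class of nuclei could be tied to it.

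Ighm behaved unlike Igkc and Jchain outside the high nuclei. In Old replicate 1 the 17 nuclei held 1952 of 3223 Ighm UMIs (60.6%), and outside them Old had 32.5 CPM against 27.7 in Young replicate 1. The fitted log2 difference between Old and Young was 0.87, and it was 0.24 without the described nuclei, an alternative chosen after seeing the data. For Igkc the same step moved the value from 4.06 to 2.99 and for Jchain from 3.79 to 2.66. Most Ighm of Old replicate 1 thus lay in 3 nuclei.

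In Running replicate 1, most nuclei rich in Ighm were Type IIb myonuclei-like. There, 325 nuclei had at least 5 Ighm UMIs, and 268 of these were Type IIb myonuclei-like, as were 5757 of all 12991 nuclei. No light chain UMI was found in 323 of the 325, but only 0.139% of all nuclei there had an Igkc UMI. A UMI of a B cell marker was found in 5 of the 325. Nuclei without any light chain UMI held 99.2% of the Ighm of Running replicate 1, 81.5% in Young, 82.3% in Sedentary and 30.5% in Old. Nuclei with an Igkc UMI made up 0.139%, 0.704%, 1.07% and 7.92% of these libraries. In Running replicate 1 the lack of a light chain thus does not set the nuclei with Ighm apart. Ighm overlaps no other gene in GENCODE vM21.

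Ighm in Type IIb myonuclei-like nuclei was 139 CPM in Running replicate 1 (14.2% of 5757 nuclei), 37.1 in Sedentary (6.08% of 3107), 31.9 in Old (6.68% of 4058) and 29.0 in Young (5.13% of 6769). These nuclei held 75.2% of all Ighm in Running replicate 1. Running replicate 1 was the highest 10x library in each of the 5 Type IIb clusters, with between 79.6 and 279 CPM against at most 67.8 in the others. The DNBelab C libraries did not share this order, with 21.1 CPM in Running (90 UMIs) and 28.8 in Sedentary (80 UMIs), 40.1 in Young (25 UMIs) and only 2 UMIs in 23 nuclei in Old. Macrophage-like nuclei also had Ighm, in 27.1% in Old, 24.3% in Young, 7.32% in Sedentary and 28.6% in Running replicate 1.

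**Figure D5:**
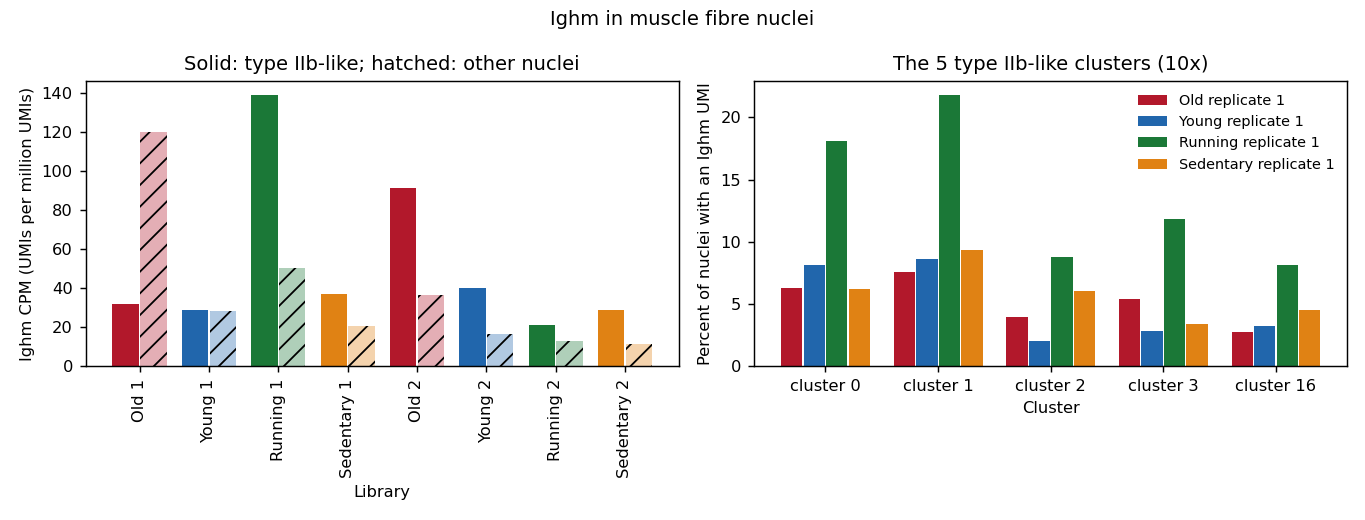
Left, Ighm CPM (y axis) in Type IIb myonuclei-like nuclei (solid) and all other nuclei (hatched) of each library, where the solid bar of Old 2 rests on 2 UMIs. Right, percent of nuclei with an Ighm UMI in the 5 Type IIb clusters of the 10x libraries, where Running replicate 1 is the highest in each, whereas Running 2 (21.1 CPM) lies below Sedentary 2 (28.8).

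The other secretory genes were placed differently. Mzb1 had 27 of its 101 UMIs in the 17 nuclei of Old replicate 1, which is 391 CPM there against 1.89 elsewhere, and it was never above 6 in a nucleus. It overlaps SPATA24 on the same strand, so its reads are uncertain. Xbp1 had 24 UMIs in the 17 nuclei (348 CPM against 42.2 elsewhere), but these were 1.43% of its total, and it never exceeded 5 UMIs in a nucleus. Xbp1 was found in 12.3% of nuclei of Old replicate 1, 8.36% in Young, 8.92% in Running and 4.16% in Sedentary.

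Among the classes of nuclei, Xbp1 was frequent in adipocyte-like ones. It had 98.1 CPM there in Old replicate 1, 141 in Young, 47.7 in Sedentary and 54.4 in Running, against 30.4, 14.8, 14.4 and 24.6 in Type IIb myonuclei-like nuclei. Adipocyte-like nuclei with an Xbp1 UMI made up 32.8% in Old, 47.1% in Young, 10.0% in Sedentary and 25.8% in Running. Adipocyte-like nuclei were the higher of the pair in all 4 10x libraries.

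Running was compared with Sedentary over the sums of all retained nuclei, which asks whether training moved these genes in middle-aged muscle. With edgeR's quasi-likelihood test, 0 of 20309 genes were called at an adjusted p under 0.05 (0%), while 98 had an unadjusted p under 0.05. DESeq2 also called 0, with 392 at an unadjusted p under 0.05. None of the 5 genes passed. The log2 difference of Running minus Sedentary was -2.57 for Igkc (SE 1.13, unadjusted p = 0.0531), -1.49 for Jchain (SE 0.99), 0.85 for Ighm (SE 0.57), 0.36 for Mzb1 (SE 0.92) and 0.18 for Xbp1 (SE 0.68), each with an edgeR adjusted p of 0.9999.

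Igkc and Jchain were lower in Running than in Sedentary in both droplet systems. The ratio for Igkc was 0.0724 (0.0493 to 0.103) in 10x libraries and 0.651 (0.121 to 3.49) in DNBelab C libraries, where 4 UMIs stood on each side. For Jchain the ratios were 0.301 (0.209 to 0.430) and 0.434 (0.0900 to 1.83). Ighm differed in direction, with 3.63 (3.34 to 3.96) in 10x and 0.821 (0.629 to 1.07) in DNBelab C libraries. Without Running replicate 1 the fitted difference of Ighm was -0.01 and that of Igkc -0.27. Without Sedentary replicate 1 they were 0.14 and -2.73. Ighm had 1.62 without Sedentary replicate 2, and Igkc -3.92 without Running replicate 2. In Type IIb myonuclei-like nuclei alone, a choice made after seeing the data, 21 of 14941 genes were called. Igkc was among them, with a log2 difference of -3.70 (edgeR adjusted p = 0.0376). It rested on 3 and 2 UMIs in Running and 32 and 2 in Sedentary. That fit also held Old replicate 2, with only 23 such nuclei. Over the 17 alternatives the adjusted p of Igkc ran from 0.0376 to 1.

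The wider groups of genes gave no call between Running and Sedentary either. Of 13 plasma cell genes tested, 7 were higher and 6 lower in Running with a median log2 difference of 0.02, against -0.04 over all genes. Txndc5 had 0.08, Ell2, an elongation factor of secreted antibody transcripts, -0.36 and Prdm1, the plasma cell transcription factor, -1.52. Of 11 B cell genes 4 were higher and 7 lower (median -0.20), with 0.38 for Ebf1 and -1.03 for Pax5, both B lineage transcription factors. Of 16 genes of the XBP1 pathway and antibody folding, 13 were higher and 3 lower (median 0.15), with 0.68 for Hspa5, the chaperone BiP, 0.12 for Hsp90b1 and -0.09 for Ern1, the sensor that activates Xbp1.

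Among 6 receptors and transporters of antibodies, 3 were higher and 3 lower (median 0.24), with 0.66 for Fcgrt, the neonatal Fc receptor, and -1.97 for Pigr, the transporter of IgA and IgM, both short of the threshold. Of 7 genes of plasma cell survival and B cell attraction 4 were higher and 3 lower (median 0.18), with -0.03 for Cxcl12. The markers of other cells gave 2 of 5 red blood cell genes higher (median -0.43), 1 of 5 T cell genes (median -0.44) and 7 of 8 macrophage genes (median 0.36).

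Between Old and Young the same lists are described with no test, beside a median of 0.19 over all genes. The plasma cell list had 8 of 13 genes higher in Old and a median of 0.11, with 1.63 for Slamf7, a surface receptor of plasma cells, 1.31 for Prdm1 and -0.49 for Ell2. All 11 B cell genes tested were higher in Old (median 0.77), with 1.20 for Bank1 and 0.39 for Ebf1, as were all 5 T cell genes (median 1.55) and 6 of 8 macrophage genes (median 1.06). The droplet systems differed for some B cell genes. Pax5 had 3.62 CPM in Old replicate 1 and 10.2 in Young replicate 1, but 47.1 and 6.60 in replicate 2. Ms4a1, the surface protein CD20, had 1.86 and 4.23 CPM in replicate 1, but 6.87 and 1.10 in replicate 2. Of the 6 antibody receptors 5 were higher (median 0.66), and of the 16 XBP1 pathway genes 5 (median -0.06). Red blood cell genes were lower in Old in 4 of 5 cases (median -1.97). The share of these other cells in the level of Igkc was not tested.

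The genes whose levels were most like those of Igkc over the 8 libraries, after centering within each droplet system, were Smpdl3b (r = 0.96), Pthlh (0.95), Lax1 (0.93), Gm13373 (0.93) and Bach2 (0.91). Lax1, an adaptor protein of lymphocytes, had 67 UMIs in Old replicate 1, 41 in Young, 26 in Sedentary and 26 in Running. Jchain had r = 0.80 and was in place 94 of the genes compared, whereas Ighm had 0.01, Mzb1 -0.18 and Xbp1 -0.23. These are descriptions over 8 libraries that share depth and droplet system, and the first 4 genes had at most 222 UMIs in any library.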

How the data were processed

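Single nuclei of mouse gastrocnemius were profiled in 8 libraries, 2 in each of 4 groups. The authors deposited filtered matrices of raw UMI counts per gene and nucleus, made with Cell Ranger 6.1.2 for 10x libraries and, per the methods, with PISA for DNBelab C libraries, both on mm10. The counting of intronic reads is not given in the sources used here, and the submitters' notes also name Seurat 4.1.1. Groups were taken from sample titles, and replicate numbers only name libraries. The droplet system of replicate 2 was read from its matrix header.

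The filter of the study was applied to nuclei (over 200 and below 6000 genes, mitochondrial share below 6%). Duplicate symbols were summed. UMIs of each gene were counted by library and nucleus, with exact Poisson intervals for levels, exact Clopper-Pearson intervals for shares, both at 95%, and 3 counts as the limit of a count of 0. Nuclei of each droplet system were clustered with scanpy 1.11.5 and leidenalg 0.10.2 (2000 variable genes, 30 components, 20 neighbors, resolution 1). The 5 members and all immunoglobulin gene symbols were left out, but Gm30211, which overlaps Igkc, was not. Clusters were named from 18 marker lists by a median log2 fold of at least 0.4 with a margin of 1 over the next list, at least 20 nuclei and at least 3 markers, limits chosen once the clusters were known. Doublets were kept, and the 6% highest Scrublet scores were left out as an alternative.

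UMI counts summed by library were fitted with edgeR 4.0.16 in R 4.3.3 (TMM scaling, filterByExpr, quasi-likelihood test, Benjamini-Hochberg adjustment over all genes, threshold 0.05) in 1 fit of all 8 libraries with group and droplet system as terms, after leaving out 12 mitochondrial and 98 ribosomal protein genes from the 21207 symbols found in all files. DESeq2 1.42.0 was an alternative. Likeness to Igkc was Pearson's r of log2 CPM with a prior count of 2.

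The members and the 8 gene lists were chosen with earlier results of these data known. Named genes were the 5 members, immunoglobulin constant genes, the leading variable segment of each high nucleus, up to 4 genes of a list with the most UMIs or any that passed, the 5 genes most like Igkc and the 10 leading genes of the Igkc-high nuclei. Bank1, Prdm1, Pax5, Ms4a1, Slamf7, Inpp4b, Fut8, Ern1, Pigr and the 11 genes of the B and plasma cell groups counted in single nuclei were named after their values had been seen. Coordinates and segment ends came from GENCODE vM21 on GRCm38.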

Additional observations from a re-analysis of the deposited data

Results flagged for a closer look

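The nuclei that the filter left out of Old replicate 1 were in no comparison and held 31 Igkc UMIs in 89 nuclei, 13 of them in 1 nucleus. The 6 nuclei left out of Young replicate 1 held 0, the 45 of Running replicate 1 held 0 and the 59 of Sedentary replicate 1 held 1. With all deposited nuclei the number of Igkc-high nuclei in Old replicate 1 was 14 in place of 13.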

How the results depend on the processing

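The count of 0 genes called between Running and Sedentary became 82 with only the 4 libraries compared, 21 in Type IIb-like nuclei and 0 to 418 when each library was left out in turn, with 418 without Sedentary replicate 2. For Old and Young it became 4 with only the 4 libraries compared, 116 in Type IIb-like nuclei and 0 to 8 when each library was left out, with 8 without Sedentary replicate 1 and 4 without Sedentary replicate 2. The log2 difference of Igkc between Running and Sedentary passed only in Type IIb-like nuclei (-3.70), and ran from -3.92 to -0.27 over left-out libraries. Over the same, Ighm ran from -0.012 to 1.62, Mzb1 from -0.45 to 1.67 and Xbp1 from -0.50 to 1.24, while Jchain kept its sign with -1.63 to -1.26. The number of Igkc-high nuclei of Young replicate 1 became 14 with a limit of 5 UMIs, 0 with 20 UMIs and 5 by all light chain genes, and that of Running replicate 1 became 0 with 20 UMIs. Why these values moved was not tested. The choices of Type IIb-like nuclei, all light chain genes and leaving out the described nuclei were made after seeing the data.

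With 2 libraries in a group and 1 for each droplet system, depth and system cannot be told apart from the libraries. The DNBelab C libraries had as few as 1 Igkc UMI, which limits every comparison there. No paired analysis was possible because replicate numbers mark only the droplet system, which is already a term of the fit. Without that term 0 genes were called in either comparison, with -3.05 for Igkc and 1.27 for Ighm in Running against Sedentary.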

Other observations

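Heavy chain classes other than IgM and IgA were thinly counted. Ighd, the constant part of the IgD of resting B cells, had 76 UMIs in Old replicate 1 (1.94 CPM), and 101 (2.54), 45 (1.01) and 27 (1.16) in the 10x libraries of Young, Running and Sedentary. In Old replicate 2 Ighd had 16 UMIs, Ighg2c 17, Ighg1 7, Ighg2b 6 and Ighg3 3. In Old replicate 1 Ighg2b had 23, Ighg2c 11, Ighg3 10 and Ighg1 0. Young replicate 1 had 0 of all 4 Ighg genes, and 3 counts are the most that a 0 allows.

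Variable segments were also found in Old replicate 2, with 217 UMIs over 141 segments, although no nucleus there had 10 Igkc UMIs. Young replicate 2 had 60 UMIs over 54 segments, Running replicate 2 had 18 over 16 and Sedentary replicate 2 had 5 over 5. Among 10x libraries Old had 137 UMIs over 59 segments, Young 54 over 33, Running 26 over 22 and Sedentary 98 over 72. Old replicate 2 had only 43 Igkc UMIs beside its 217 segment UMIs, whereas Old replicate 1 had 3610 beside 137. Whether the segment UMIs of Old replicate 2 come from antibody transcripts was not tested.

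In Type IIb myonuclei-like nuclei of Running replicate 1 with at least 5 Ighm UMIs, the genes that stood highest against nuclei with none were Ryr3, a calcium release channel (8.61-fold), Med12l (4.52-fold) and Sorcs1 (3.84-fold). The 5 such nuclei of Sedentary replicate 1 were led by Lsamp (134.5-fold, 106 UMIs) and Kcnd2 (106.4-fold, 36 UMIs). Both were also among the 8 leading genes of Running replicate 1, but at 3.35-fold and 3.06-fold. How the UMIs of Lsamp and Kcnd2 were divided among the 5 nuclei was not examined. The lists of Old and Young, of 23 nuclei each, began with Igfn1 in Old and Ostn in Young. Only genes with at least 20 UMIs in the nuclei with at least 5 Ighm UMIs were ranked. There, 22 UMIs were 188 CPM in Old and 184 in Young, while the 8 leading genes of Running replicate 1 lay between 14.6 and 88.5 CPM. Genes at those levels could not be listed in Old or Young, so their lists cannot be compared with that of Running.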
